A study of Drosophila melanogaster with 12 samples.

Results

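The G elements of Drosophila melanogaster are non-LTR retrotransposons of the jockey clade, relatives of the F and Doc elements. Non-LTR retrotransposons have no long terminal repeats, encode a reverse transcriptase, and insert by copying their own RNA at the target site, which leaves many copies truncated. The members were chosen by name among the 126 consensus transposons listed in the files, as G-element or as G followed by a digit and at most 1 letter. This gave 8 of 126 transposons, which were G-element (FBgn0001100), G2 (FBgn0063507), G3 (FBgn0063506), G4 (FBgn0063505), G5 (FBgn0063504), G5A (FBgn0069433), G6 (FBgn0063503), and G7 (FBgn0067419). GATE, an LTR element, was not included. The files class G6 as germline dominant and give no class for the other 7. In the BDGP6 annotation, 147 insertions carry the names of the 8 members, from 4 for G7 to 31 for G4, and the median insertion of each member was between 289 bp (G5A) and 1948 bp (G6) long. Reads were aligned by the authors to consensus sequences and not to these insertions.

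Transposon activity in the ovary is held down by piRNAs, small RNAs bound to the PIWI proteins Aub, Ago3, and Piwi. A sense piRNA has the orientation of the transposon mRNA, and an antisense piRNA can pair with it. In heterotypic ping-pong, Aub with antisense piRNAs cleaves transposon RNA in the germline and the product becomes a sense piRNA in Ago3, whose cleavage of antisense precursors yields new Aub piRNAs. Piwi acts in the nucleus of germ cells and follicle cells and silences transcription.

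Small RNAs were sequenced from 12 immunoprecipitates of PIWI proteins from pooled ovaries of flies aged 2 to 5 d. The aubWT and aubRK ovaries were mutant for endogenous aub (aub[QC42/HN2]) and expressed a transgene (UAS-3xHA:aub[WT] or UAS-3xHA:aub[RK]) from the germline driver nos-Gal4. The tagged Aub was wild type in aubWT and had lysines in aubRK in place of the N-terminal arginines that are methylated and bind Tudor domain proteins. Aub and Ago3 were each sequenced once from both genotypes, and Piwi once from aubWT and from 2 libraries of aubRK. The y[1] w[1] strain (y w), with endogenous Aub, gave 1 Ago3 library. Loss of the arginine methyltransferase Csul was examined in 1 Aub and 1 Ago3 library of csul[RM50] (csulRM50) ovaries, set against 1 of each from w1118 ovaries. These 4 libraries were made with other antibodies and another protocol than the other 8. The Ago3 aubWT, Piwi aubWT, and second Piwi aubRK libraries had an adaptor with a random barcode, by which PCR duplicates were discarded, and the other 9 had none. Each distinct read stood for 5.57 to 39.1 read copies in those 9, with the most in Aub aubWT (39.1) and Aub aubRK (28.0). Because of the barcode, genotype and adaptor cannot be told apart for Ago3 aubRK against aubWT, while y w shares the adaptor of aubRK. Within aubWT, protein and adaptor cannot be told apart between Ago3 and Aub or between Piwi and Aub. The nos-Gal4 driver is active in germ cells and not in the follicle cells that ovaries also hold. Whether strain backgrounds were matched is not given in the sources used here.

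Between 1338017 and 47217032 read copies per library were on transposons, and between 30282 and 1405589 of them were on G elements. All 8 members passed the minimum mean of 100 counts over the 12 libraries, as did 123 of the 126 transposons, and none of the 96 values of a member in a library was under the 50 counts required for a sense share. Levels are read copies of both orientations scaled to a total of 1000000 on transposons in each library (CPM). They were not divided by the length of the consensus, which was not used here, so levels are compared between libraries and not between members. With 1 library per condition apart from Piwi aubRK no p-value was computed, and the spread between libraries of 1 condition is known only from that pair. Intervals are 95% intervals of counting error, computed as if each read copy were an independent molecule. PCR copies are not independent, so in libraries without a barcode the intervals are too narrow even for counting error. They do not cover the spread between libraries. Of transposons known from follicle cells, 7 of 7 (ZAM, gypsy, gypsy5, gypsy10, gtwin, Idefix, and Tabor) had read copies in every library. This included the Aub libraries of aubWT and aubRK, so detection alone does not tell cell types apart. Together these 7 took from 0.443% (Aub aubWT) to 7.03% (second Piwi aubRK library) of read copies. A list of 4 germline transposons (Burdock, HeT-A, TAHRE, and Rt1b) took from 5.44% to 11.4%.

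G elements took between 2.15% and 4.71% of the transposon read copies of a library. The share was highest in w1118, at 4.71% for Ago3 and 4.56% for Aub, followed by Ago3 y w at 3.96% and Piwi aubWT at 3.43%. In aubWT it was 2.81% for Aub and 2.63% for Ago3. The mutants were the lowest, with 2.44% for Ago3 aubRK, 2.35% for Ago3 csulRM50, 2.26% for each Piwi aubRK library, 2.18% for Aub aubRK, and 2.15% for Aub csulRM50. The pair of Piwi aubRK libraries, at 22605 and 22632 CPM, differed by less than any other neighbours in this order, but the spread within the other conditions is not known.

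**Figure D1:**
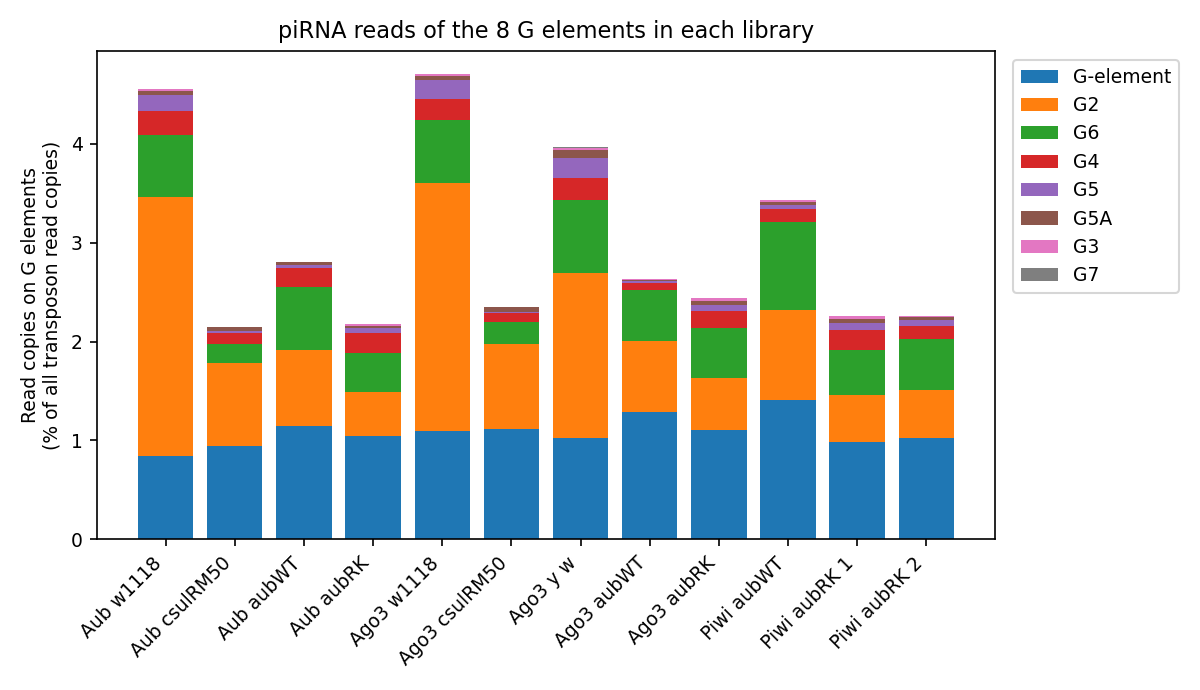
Read copies on the 8 G elements as a percentage of all transposon read copies (vertical axis) in each of the 12 libraries (horizontal axis), stacked by member. The G-element segment is of similar height throughout, between 8457 and 14068 CPM, while G2 reaches 26144 CPM in Aub w1118 and 25155 CPM in Ago3 w1118.

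G-element, G2, and G6 together took 84.7% to 95.7% of the family's read copies in every library. The level of G-element varied least of the 8 members, 1.66-fold between the lowest library (8457 CPM, Aub w1118) and the highest (14068 CPM, Piwi aubWT), with a median of 10648 CPM. G2 varied 5.81-fold. In Aub libraries G2 was at 26144 CPM in w1118, 8456 in csulRM50, 7675 in aubWT, and 4500 in aubRK. In Ago3 libraries G2 was at 25155 CPM in w1118, 16695 in y w, 8558 in csulRM50, 7119 in aubWT, and 5305 in aubRK. In Piwi libraries G2 was at 9166 CPM in aubWT and at 4742 and 4809 CPM in aubRK. G2 was thus higher in both wild-type strains without a transgene than in any other library, and accounted for 57.3% of the family in Aub w1118 against 20.7% in Aub aubRK.

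G5 followed the same division of the libraries and varied 11.5-fold. G5 stood at 2042 CPM in Ago3 y w, 1889 in Ago3 w1118, and 1594 in Aub w1118. In the other 9 libraries G5 was between 177 (Ago3 csulRM50) and 667 CPM (first Piwi aubRK library). The division was described from G2 levels in the same libraries. How many of the other transposons divide the libraries in this way was not counted, so it may not be particular to G elements. In log2(CPM + 1), the median transposon was itself lower in csulRM50 than in w1118 (−0.57 for Aub and −0.60 for Ago3). Against Ago3 y w it was lower in Ago3 aubWT (−0.98) and Ago3 aubRK (−0.16). G5A, whose name marks it as close to G5 and with which reads may be shared, varied 11.3-fold, from 75.4 CPM in Ago3 aubWT to 850 CPM in Ago3 y w. G6 ranged from 1924 CPM in Aub csulRM50 to 8904 CPM in Piwi aubWT and G4 from 789 CPM in Ago3 aubWT to 2409 CPM in Aub w1118. G3 stayed between 51.6 and 241 CPM. G7, the rarest member by reads, stayed between 5.43 and 57.5 CPM and rested on 63 to 1832 read copies per library.

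Across the 12 libraries the members did not move as 1 group. The Pearson correlation of log2(CPM + 1) between members ranged from −0.52 for G4 and G-element to 0.83 for G5 and G4. Libraries share protein, genotype, and method, and these values are descriptions without a test. Of the 115 other transposons, the levels nearest to the family sum were those of TAHRE (r = 0.904, 12 libraries), a telomeric non-LTR element, and of the LTR elements accord (r = 0.866) and accord2 (r = 0.850). Among its own members the sum was nearest to G2 (r = 0.920) and far from G-element (r = −0.0439). Members are part of the sum, and G2 made up 20.7% to 57.3% of it. The r of G2 is thus partly built in and is not a like measure to those of TAHRE and accord.

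The orientation of the family's piRNAs differed between the 3 proteins and between genotypes. Aub piRNAs of the family were 7.84% sense in w1118, 21.3% in csulRM50, 35.6% in aubWT, and 42.8% in aubRK. Ago3 piRNAs were 35.0% sense in w1118, 43.6% in aubRK, 48.3% in csulRM50, 62.6% in y w, and 68.2% in aubWT. Piwi piRNAs were 47.8% sense in aubWT and 44.4% ± 1.12 (SD, n = 2) in aubRK, with 45.2% and 43.6% in the first and second library. Counting error for these pooled shares, with read copies taken as independent, was at most 0.559 points. Pooled over all 126 transposons, Piwi piRNAs were 26.7% sense in aubWT and 26.5% and 24.7% in aubRK, so that Piwi held a larger sense share for G elements than for transposons as a whole in each of the 3 libraries. This was not particular to Piwi. The family was also above the pooled share in Aub aubWT and aubRK and in Ago3 aubWT, aubRK, y w, and csulRM50. It was below the pooled share in Aub and Ago3 w1118 and in Aub csulRM50. Of 111 other transposons with at least 50 counts in Piwi aubWT, whose median was 35.6% sense, 73.0% had a lower sense share than the family. Aub w1118 stood at the other end, where 8.85% of 113 others were lower than the family.

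**Figure D2:**
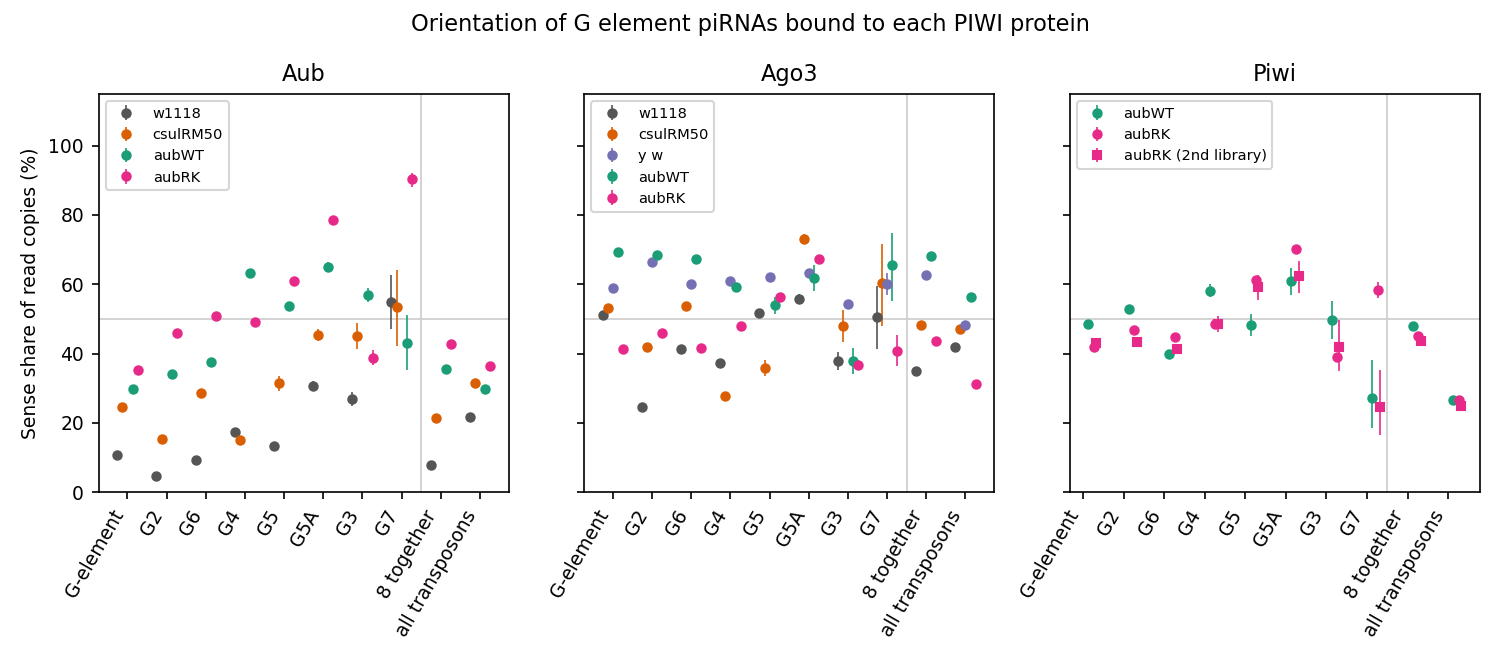
Sense share of read copies (vertical axis, %) for each G element, the 8 together, and all transposons (horizontal axis), with a panel for each protein and a colour for each genotype. Bars are Wilson 95% intervals that take read copies as independent. Aub w1118 sits lowest for the family at 7.84%, Ago3 aubWT highest at 68.2%, and the Ago3 aubRK points lie close to those of Piwi aubRK except for G7, where the Piwi pair is apart.

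The wild-type partition of sense and antisense piRNAs between Ago3 and Aub was compared for each member. In w1118, Ago3 piRNAs of the family were 27.2 points more sense than Aub piRNAs (95% interval 27.0 to 27.3). The gap was over 10 points toward sense for 7 of 8 members, where 72.7% of 121 transposons were, and over 10 points the other way for 0, where 5.79% were. It was 40.3 points for G-element (51.1% in Ago3 and 10.8% in Aub), 38.2 for G5 (51.5% and 13.3%), and 32.1 for G6 (41.4% and 9.27%). G2, the member with the most reads in these libraries, was 24.6% sense in Ago3 and 4.79% in Aub. G7 alone had a gap whose interval included 0 (−16.5 to 7.60 points). Counting identical reads once reduced the family gap in w1118 to 14.6 points and left 6 of 8 members over 10 points, without G3 (6.71).

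In aubWT, where the Ago3 library had a barcode and the Aub library had none, the family gap was 32.6 points (32.4 to 32.8). The gap was largest for the 3 members with the most reads. G-element was 69.4% sense in Ago3 and 29.7% in Aub, G2 68.5% and 34.1%, G6 67.3% and 37.4%, and G7 65.5% and 43.1%. These 4 of 8 members were over 10 points toward sense, against 44.7% of 123 transposons, and 1 was over 10 points toward antisense, against 14.6%. G4, G5, and G5A had gaps of −3.95, 0.25, and −3.25 points, and their Aub piRNAs were 63.1%, 53.6%, and 65.1% sense. For G3 the order was the opposite, with 37.8% sense in Ago3 and 57.0% in Aub, although the Aub share of G3 rested on 91 distinct reads. That of G7 rested on 9, too few for a share by distinct reads. The median over the 8 members was 11.4 points.

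In aubRK the gap was 0.85 points (0.62 to 1.08). None of the 8 members was over 10 points toward sense, where 8.94% of 123 transposons were. G-element had 41.2% sense in Ago3 and 35.2% in Aub, and G2 had 46.1% and 45.9%. G5A and G7 were over 10 points in the opposite direction, at −11.2 and −49.5 points, as were 30.9% of all transposons. Aub piRNAs of G7 were 90.2% sense of 789 read copies, but these were copies of 27 distinct reads. Over the jockey-clade relatives, the median gap was 26.6 points in aubWT and 0.63 points in aubRK for 13 measured elements, beside 7.71 and −3.13 points over all transposons.

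In csulRM50 the gap was 27.0 points (26.8 to 27.3), as large as in w1118 in pooled read copies. This match depended on G2, whose share of the family was lower in csulRM50. Without G2, a choice made after seeing the data, the gap was 26.9 points in csulRM50 and 35.1 in w1118. The median over members was 19.0 points in csulRM50 and 22.6 in w1118. G-element, G3, G4, G5, and G6 had smaller gaps in csulRM50, while those of G2, G5A, and G7 lay further toward sense. The gap in csulRM50 was over 10 points toward sense for 5 of 8 members, where 56.2% of 121 transposons were. It was over 10 points the other way for 0, where 5.79% were. Those 5 were G-element (28.4 points), G5A (27.6), G2 (26.4), G6 (25.3), and G4 (12.7). With identical reads counted once the gap was 9.87 points in csulRM50, against the 14.6 points of w1118, and 2 of 8 members were over 10 points, G5A (12.9) and G-element (10.7). G2, G6, and G4 then stood at 9.38, 9.0, and 8.64 points.

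**Figure D3:**
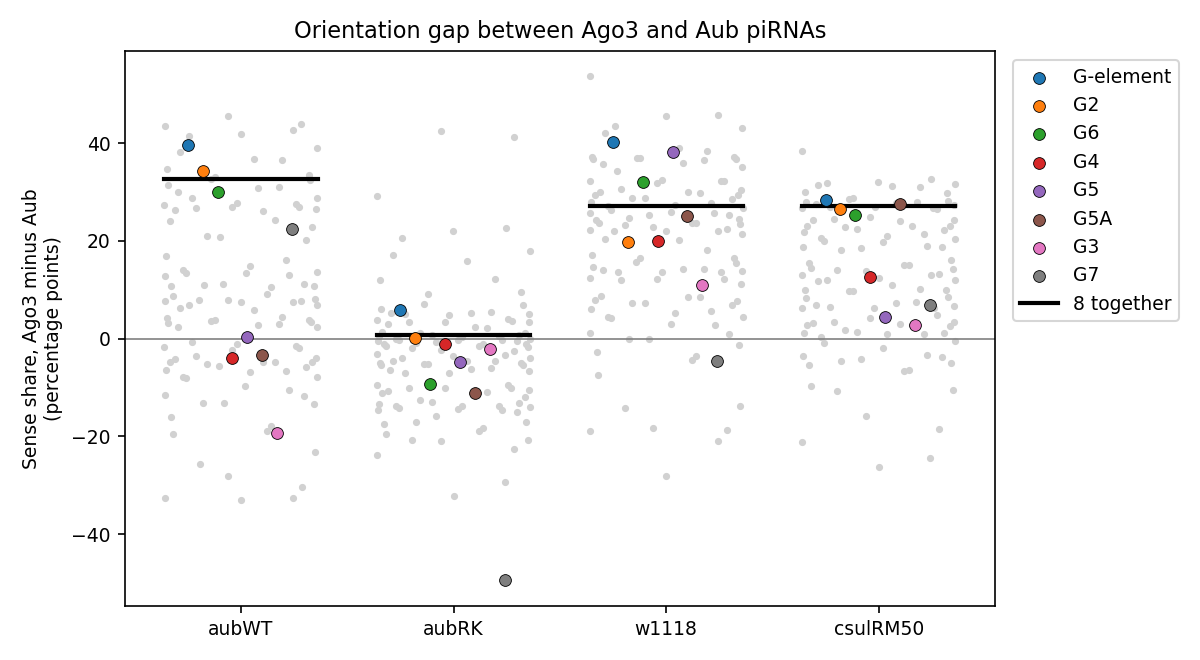
Sense share of Ago3 piRNAs minus that of Aub piRNAs (vertical axis, percentage points) in 4 genotypes (horizontal axis), with coloured points for the G elements, a black line for the 8 together, and grey points for the other transposons. The black line stands at 32.6 in aubWT, 0.85 in aubRK, 27.2 in w1118, and 27.0 in csulRM50, and in aubRK the points of G-element, G2, G3, G4, and G5 lie within 6 points of 0.

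Replacement of the Aub arginines was examined first in the Ago3 libraries. Ago3 piRNAs of the family were 24.6 points less sense in aubRK than in aubWT (−24.9 to −24.4) and 19.0 points less than in y w. Against aubWT, 5 of 8 members were over 10 points lower, as were 58.5% of 123 transposons, and 0 were higher, as were 10.6%. The differences were −28.2 points for G-element, −25.9 for G6, −24.7 for G7, −22.4 for G2, and −11.1 for G4. Against y w, 6 of 8 were over 10 points lower, as were 55.2% of 125 transposons, and 0 were higher, as were 7.2%. G3 was among them here, with −17.5 points. G5 and G5A were not over 10 points in either comparison. Both comparisons share the aubRK library. With identical reads counted once the family difference was −9.38 points against y w. Against aubWT it was −22.7 points, but there the count altered only the aubRK library, so these values are not like measures. In that count 5 of 8 members were over 10 points lower than in aubWT and 3 of 8 lower than in y w (G7, G3, and G2), while G-element (−9.43), G4 (−7.71), and G6 (−7.19) were not. Among the jockey-clade relatives, 13 of 13 were over 10 points lower than in aubWT and 12 of 14 lower than in y w.

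The sense shares of Ago3 aubRK were near the mean of the 2 Piwi aubRK libraries for each member. The difference between both proteins was between −3.91 points (G5) and 1.08 points (G5A), with a mean absolute size of 1.70 points over the 8 members, and 0 of 8 exceeded 10 points, as 5.93% of 118 transposons did. For G7 the Piwi libraries stood at 58.4% and 24.7% around the 40.8% of Ago3, so that its difference of −0.72 points lies within their spread. In aubWT the mean absolute difference between Ago3 and Piwi was 15.2 points, and 5 of 8 members exceeded 10 points, where 74.8% of 119 transposons did. Between Aub and Piwi in aubWT, 3 of 8 members exceeded 10 points, where 55.5% of 119 transposons did, and these were G-element (−18.7), G2 (−18.7), and G7 (15.8). In aubRK, 2 of 8 members exceeded 10 points (G5A and G7), as did 40.7% of 118 transposons. The share of the 7 follicle cell transposons was 5.48% of Ago3 aubRK, 0.654% of Ago3 aubWT, and 2.58% of Ago3 y w, beside 5.67% to 7.03% of the Piwi libraries, and its part in the orientation of G element piRNAs was not tested.

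Levels were compared as differences in log2(CPM + 1), relative to the median of the 123 transposons, because this median itself lay between −0.98 and 0.78 in the 7 comparisons under CPM. A change was called when it exceeded 2-fold. For the 8 members summed, 0 of the 7 comparisons passed 2-fold, with values between −0.89 for Ago3 aubRK against aubWT and 0.39 for Ago3 aubWT against y w, the latter −0.59 with plain CPM. Past 2-fold were Aub csulRM50 (−1.08) and Ago3 csulRM50 (−1.0) with plain CPM. So was Ago3 aubRK against aubWT (−1.03) with identical reads counted once, which altered only the aubRK library. The median over members was of the opposite sign for Ago3 aubRK against aubWT (0.41), Piwi (0.24), and Ago3 aubWT against y w (−0.36). For Ago3 aubRK against aubWT, 3 of 8 members passed, where 46.3% of 123 transposons did. G5A was higher by 1.72 on the log2 scale (75.4 CPM in aubWT and 431 in aubRK), and G2 and G-element were lower, with changes of −1.20 and −1.01. The split between higher and lower turned on the scaling, with 1 higher and 2 lower as given, 5 higher and 0 lower with plain CPM, 3 higher and 0 lower with TMM factors, and 3 higher and 3 lower with identical reads counted once. Against y w, 2 of 8 passed, where 25.2% of transposons did, and these were G2 (−1.49) and G5 (−1.46). With identical reads counted once 1 of 8 passed. G5A was at −0.82 against y w, opposite in sign to its value against aubWT, since y w held 850 CPM of it.

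**Figure D4:**
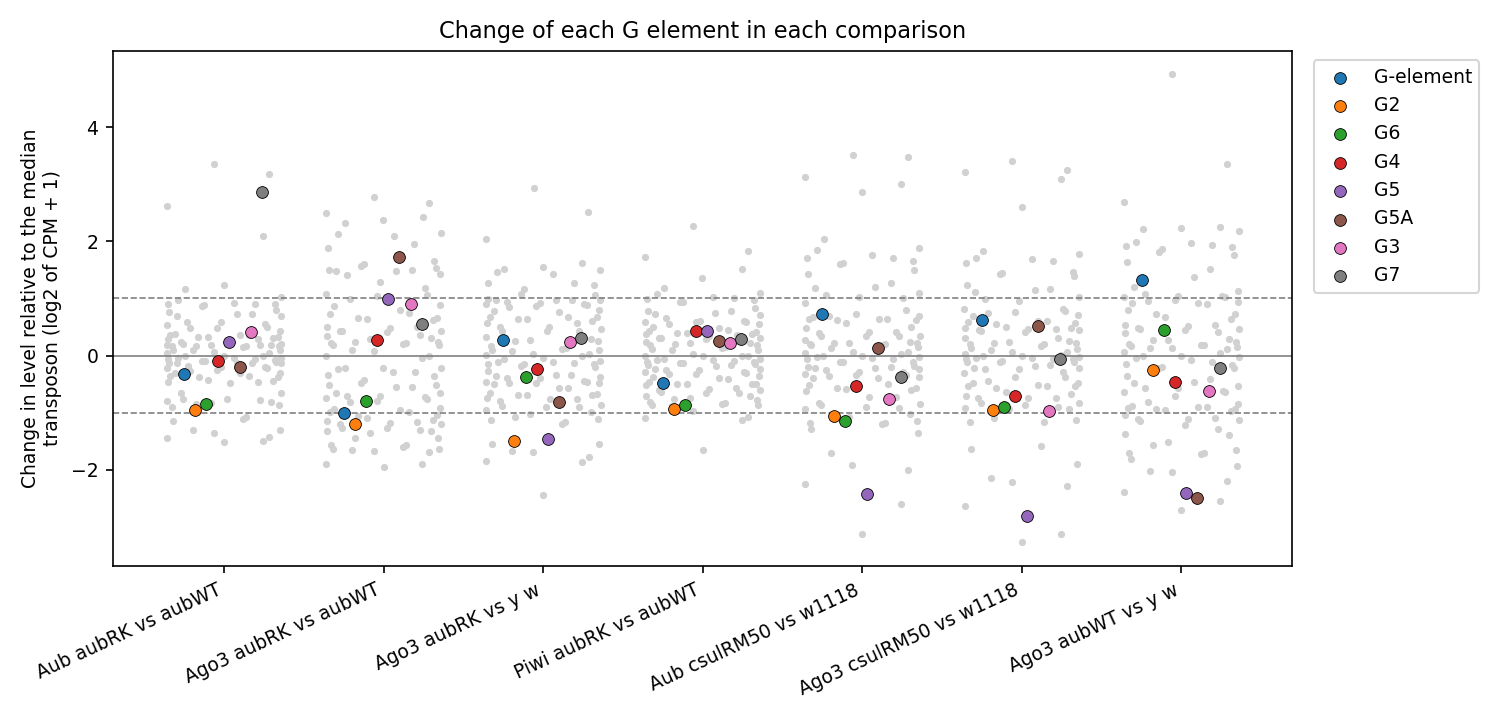
Change in level of each G element (coloured points) and of the other transposons (grey points) relative to the median transposon, in log2 of CPM + 1 (vertical axis), for 7 comparisons (horizontal axis), with dashed lines at 2-fold. G5 lies lowest of the members in both csulRM50 comparisons, at −2.44 for Aub and −2.81 for Ago3, and G7 lies highest for Aub aubRK against aubWT, at 2.87.

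Aub piRNAs of the family were 7.14 points more sense in aubRK than in aubWT (6.94 to 7.34), and all transposons pooled were 6.65 points more sense. G7 (43.1% in aubWT and 90.2% in aubRK), G5A (65.1% and 78.5%), G6 (37.4% and 50.7%), and G2 (34.1% and 45.9%) were over 10 points higher, and G3 (57.0% and 38.8%) and G4 (63.1% and 49.1%) over 10 points lower. These were 4 higher and 2 lower of 8 members, where 13% of 123 transposons were higher and 13.8% lower. In level, 1 of 8 members passed 2-fold, where 14.6% of transposons did. It was G7, with 5.43 CPM in aubWT and 52.3 CPM in aubRK, a change of 2.87 on the log2 scale. This difference rested on 9 distinct reads in aubWT and 27 in aubRK, and was 1.62 with identical reads counted once. The antisense reads of G2 and G6, the strand that targets the element's mRNA, were lower relative to the median antisense level by log2 values of −1.21 and −1.17, while their sense reads were at −0.45 and −0.34. Antisense reads of the other members lay on both sides of that median. They were at −0.42 for G-element, 0.92 for G3, 0.38 for G4, 0.018 for G5, −0.87 for G5A, and 0.42 for G7.

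For Piwi, 0 of 8 members passed 2-fold between aubRK and aubWT, where 11.4% of 123 transposons did. The values closest to the limit were −0.93 for G2 (9166 CPM in aubWT) and −0.87 for G6 (8904 CPM in aubWT, 4589 and 5134 CPM in aubRK). Without the second aubRK library both passed, at −1.04 and −1.05. For G3, the member with the widest spread in level, the pair of aubRK libraries stood at 241 and 126 CPM, a log2 difference of 0.93, so that its change of 0.21 lies within the spread of the pair. In orientation, G5 was 48.2% sense in aubWT and 61.3% and 59.1% in aubRK, a difference of 11.9 points. The SD of the aubRK pair was 1.57 points, but the spread of Piwi aubWT is not known. G7 was 27.3% sense in aubWT and 58.4% and 24.7% in aubRK, and without the first aubRK library its difference of 14.2 points became −2.60. These 2 of 8 members were over 10 points higher, as were 9.48% of 116 transposons, and 0 were lower, as were 10.3%. For the family, the libraries with a barcode alone (second aubRK library and aubWT) differed by −4.22 points and by −0.58 in log2 level.

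Loss of Csul was compared within its own 4 libraries. Aub piRNAs of the family were 13.4 points more sense in csulRM50 than in w1118 (13.2 to 13.6), against 9.92 points for all transposons pooled. Over 10 points higher were 6 of 8 members, where 31.4% of 121 transposons were, and 0 were lower, where 1.65% were. G6 went from 9.27% sense in w1118 to 28.5% in csulRM50, G3 from 26.8% to 45.1%, G5 from 13.3% to 31.4%, G5A from 30.6% to 45.4%, G-element from 10.8% to 24.6%, and G2 from 4.79% to 15.4%. G4 (17.3% and 15.1%) and G7 (55.0% and 53.3%) were not among them, nor was G3 (8.33 points) with identical reads counted once. Of the 13 measured jockey-clade relatives, 5 were over 10 points higher and 0 lower, with a median of 6.65 points beside 5.21 over all transposons.

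Ago3 piRNAs of the family were 13.3 points more sense in csulRM50 (13.1 to 13.6). This value depended on G2 (24.6% in w1118 and 41.8% in csulRM50) and was 5.08 points without it, and 6.25 points with identical reads counted once. Over 10 points higher were 4 of 8 members (G2, G3, G5A, and G6), where 13.2% of 121 transposons were, and 1 was lower (G5, from 51.5% to 35.8%), where 17.4% were. Counted by distinct reads, 2 of 8 members were over 10 points higher (G6 and G5A) and 0 lower. G2 was then at 8.0 points, G3 at 1.53, and G5 at 1.37. G3 lay at the limit, with 10.03 points and an interval of 4.75 to 15.3.

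The level of G5 differed most of the members between csulRM50 and w1118. In Aub it was at 1594 CPM in w1118 and 198 CPM in csulRM50, and in Ago3 at 1889 and 177 CPM, changes of −2.44 and −2.81 relative to the median on the log2 scale. With identical reads counted once these were −1.65 and −1.74. For Aub, 3 of 8 members passed 2-fold, where 33.3% of 123 transposons did, and these were G5, G6 (−1.15), and G2 (−1.06). For Ago3, 1 of 8 passed, where 27.6% did, while G3 (−0.97), G2 (−0.96), and G6 (−0.90) were just inside the limit. With plain CPM 5 members passed in each protein, and with identical reads counted once 1 passed in each. G-element went the other way, with 0.72 in Aub and 0.63 in Ago3, neither past 2-fold. For Aub, the sense reads of G2 and G6 were at 0.26 and 0.11 relative to the median sense level, and their antisense reads at −1.09 and −1.36. The other members did not share 1 pattern. Their sense and antisense values were 1.55 and 0.62 for G-element, −0.38 and −1.03 for G3, and −1.08 and −0.36 for G4. They were −1.55 and −2.63 for G5, 0.34 and −0.074 for G5A, and −0.72 and −0.12 for G7.

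The wild-type Ago3 libraries aubWT and y w, differ in strain, transgene, and adaptor. Past 2-fold were 3 of 8 members, where 42.3% of 123 transposons were. G5A (75.4 CPM in aubWT and 850 in y w) and G5 (194 and 2042 CPM) were lower in aubWT, by log2 values of −2.50 and −2.41, and G-element was higher by 1.32. With plain CPM 0 members were past 2-fold higher and 6 lower. In orientation the family was 5.60 points more sense in aubWT (13.3 points with identical reads counted once, which altered only the y w library). G-element was 10.4 points higher and G3 16.4 points lower in aubWT, which makes 1 of 8 in each direction, where 20.3% of 123 transposons were higher and 13% lower. Counted by distinct reads, 3 were higher, G6 (16.7), G-element (15.9), and G2 (11.5), and 1 was lower.

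Among the jockey-clade relatives, 13 of the 16 listed passed the minimum count. For Aub aubRK against aubWT 0 were past 2-fold higher and 2 lower, where 14.6% of all transposons were past 2-fold, with values from 0.91 for jockey2 to −1.52 for BS. In the Ago3 libraries 1 was higher and 4 lower against aubWT (46.3% of all transposons), from 1.51 for jockey2 to −1.67 for X-element. Against y w 0 were higher and 3 lower (25.2%), from 0.92 for Doc to −1.87 for BS3. For Piwi 0 were higher and 1 lower (11.4%), from 0.95 for Doc4-element to −1.65 for X-element. In csulRM50 against w1118, 4 were higher and 2 lower for Aub (33.3%) and 3 higher and 2 lower for Ago3 (27.6%), with Juan highest in both at 1.71 and 1.72 and Doc4-element lowest at −2.01 and −1.89. In Ago3 aubWT against y w, 2 were higher and 1 lower (42.3%), from 2.26 for Doc to −2.05 for BS3.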

How the data were processed

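Adaptors were trimmed by the authors (cutadapt 2.3), who merged duplicates where a barcode allowed it and mapped full-length reads with STAR 2.4.2a onto FlyBase consensus transposons. The authors deposited raw counts by transposon and orientation, as read copies and as distinct reads, which were equal in the libraries with a barcode. A read that matches several consensus sequences can be counted on each. Genome alignments used dm3, and insertion counts here come from BDGP6 names alone.

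Read copies were scaled by the library total on transposons, of which a floor of 3 counts is at most 0.000224%. Changes are log2(CPM + 1) differences minus the median of the 123 transposons averaging 100 counts or more. Piwi aubRK libraries were averaged. Sense shares have Wilson 95% intervals and their differences Newcombe intervals, both computed on read copies. No test was run, since at least 1 group of each comparison had 1 library. The computation of level changes and 2-fold calls was tested on simulated data with planted changes beyond the limit and counting noise alone. The simulation held no spread between libraries and no PCR copies. It therefore does not give the rate of false calls between single libraries.

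All members are named. Also named are the 3 transposons nearest to the family sum and the highest and lowest jockey-clade relative per comparison. Members, lists, and comparisons were chosen with earlier results of these data known. Alternatives were no centring, TMM (edgeR 4.0.16), DESeq2 1.42.0 size factors (R 4.3.3), distinct reads, 1 orientation, the median over members, a pseudocount of 10, no filter or 1000 counts, minimums of 10 or 500 counts, and each Piwi aubRK library left out. Leaving out G2 or G-element was added after seeing the data. Python 3.11.15 was used for all else.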

Additional observations from a re-analysis of the deposited data

Results flagged for a closer look

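In 5 cases a member's sense share differed by over 10 points in opposite directions for 2 proteins under the same change of genotype. With 1 library per group, except for Piwi aubRK, these differences were not tested. Between aubRK and aubWT, the change in Aub exceeded that in Ago3 by 34.3 points for G2 (11.8 and −22.4), by 39.2 points for G6 (13.3 and −25.9), and by 71.9 points for G7 (47.2 and −24.7). G7 had 9 and 27 distinct reads in the Aub libraries. The change of G7 in Ago3 was also −39.0 points relative to that in Piwi (14.2), where both aubRK libraries differed by more than the change. Between csulRM50 and w1118, G5 differed by 33.8 points between Aub (18.1) and Ago3 (−15.8). With identical reads counted once both were positive, at 10.9 and 1.37 points.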

How the results depend on the processing

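With 1 library in all but 1 condition, depth sets the counting error alone. No paired analysis was made because the sample labels give no pairing between the groups compared. The cause of the shifts listed here was not tested. Of 79 alternative values of the family's level change 72 kept their sign, and of 61 of its sense difference 59 did. Of 263 for the 64 member results past 2-fold or 10 points 259 did. The family counts include settings that could change little or nothing. A minimum of 10 counts left each family sense difference as reported, because every member had already passed the higher minimum. The pseudocount and filter settings kept the sign of the family's level change in every comparison. The family counts therefore overstate how far the signs were put to a test. The exceptions among members were the sense reads alone of G2 (0.26) and G6 (0.11) for Aub csulRM50, G7 in Piwi without replicate 1 (−2.60 points, and 31.1 without replicate 2), and G5 in Ago3 csulRM50 counted by distinct reads (1.37 points). Values follow in the order Aub aubRK and Ago3 aubRK against aubWT, Ago3 aubRK against y w, Piwi aubRK against aubWT, Aub and Ago3 csulRM50 against w1118, and Ago3 aubWT against y w. The log2 level change of the family was −0.54, −0.89, −0.54, −0.59, −0.51, −0.41, and 0.39 as reported, −0.16, 0.41, −0.31, 0.24, −0.65, −0.80, and −0.36 as the median over members, −0.37, −0.11, −0.70, −0.60, −1.08, −1.0, and −0.59 with plain CPM, −0.39, −0.52, −0.41, −0.32, −0.68, −0.50, and 0.11 with TMM, −0.59, −0.89, −0.41, −0.65, −0.52, −0.50, and 0.49 with DESeq2 factors, −0.21, −0.83, −0.19, −0.66, 0.57, 0.0088, and 0.48 for sense reads, −0.69, −0.37, −0.29, −0.55, −0.61, −0.71, and 0.20 for antisense reads, −0.54, −1.03, −0.25, −0.63, −0.18, −0.15, and 0.94 with identical reads counted once, −0.54, −0.84, −0.55, −0.59, −0.56, −0.51, and 0.26 with a pseudocount of 10, −0.54, −0.89, −0.55, −0.59, −0.55, −0.41, and 0.34 with no filter, −0.54, −0.88, −0.43, −0.59, −0.51, −0.43, and 0.43 with the filter at 1000 counts, and −0.42, −0.79, −0.11, −0.49, −0.0041, 0.045, and 0.72 without G2 (chosen after seeing the data). For Piwi without replicate 1 or 2 it was −0.58 to −0.69. Members past 2-fold were 5 (Ago3 aubRK against aubWT), 5 and 5 (csulRM50), and 6 (Ago3 aubWT) with plain CPM, and 3 for Ago3 csulRM50 with TMM, DESeq2, or a pseudocount of 10. They were 0 for Aub aubRK with the filter at 1000. That filter removed G7, the only member past 2-fold there, so its change was not evaluated again. Members past 2-fold were 0 to 2 for Piwi with either replicate left out. With identical reads counted once they were 6 and 1 for Ago3 aubRK (against aubWT and y w), 1 for Piwi, and 1 for Aub csulRM50. The sense difference in points, followed by Ago3 minus Aub in aubWT, aubRK, w1118, and csulRM50, was 7.14, −24.6, −19.0, −3.43, 13.4, 13.3, 5.6, 32.6, 0.85, 27.2, and 27.0 as reported, 9.59, −16.7, −17.6, −1.44, 14.3, 9.95, 0.356, 11.4, −3.45, 22.6, and 19.0 as the median over members, 6.59, −22.7, −9.38, −1.61, 11.0, 6.25, 13.3, 29.5, 0.192, 14.6, and 9.87 with identical reads counted once, and 5.74, −25.2, −17.0, −1.79, 13.2, 5.08, 8.19, 31.9, 0.996, 35.1, and 26.9 without G2. Without G-element, also chosen after seeing the data, the last 4 were 27.4, −4.02, 23.0, and 25.4.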
